A study of Mus musculus with 31 samples.

Results

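Brain transcripts 18 h after an injection of oleic acid were compared with those 18 h after physiological serum, in 2 mice per treatment. These 4 arrays are those whose labels give the 18 h time, of 31 arrays in the series, which covers 6 times from 1 to 24 h. All 4 mice were 6-week-old female C57BL/6 animals with no genetic change stated, anaesthetised with ketamine and xylazine. The oleic acid mice received 200 µl by tail vein, given as 1.2 µl per g of body weight, and the serum mice received 200 µl of physiological serum by the same route. Total RNA of the brain was labelled with Cy3, 200 ng per mouse, and hybridised to a single-colour Agilent array, with 1 mouse per array. The series' design text gives 3 oleic acid mice per time, and 2 were labelled 18 h here.

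Oleic acid given into a vein injures the capillary wall of the lung, and is used in animals as a model of acute lung injury, which the title of the series names. Such an injury can reach the brain through the circulation, by low blood oxygen, by circulating cytokines and by white blood cells in its vessels. Cells answer misfolded protein with chaperones: the unfolded protein response raises those of the endoplasmic reticulum, and the factor HSF1 raises the heat shock proteins of the cytosol. Neurons answer activity with immediate early genes, and neutrophils carry granule proteins that mark blood in a tissue.

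Signals are given on a log2 scale after subtraction of the array's 75th percentile, so a difference of 1 is a doubling. Differences are oleic acid minus serum with the moderated standard error (SE) of limma, whose fit shared the spread of all 31 arrays in 12 groups. Both oleic acid arrays lay on slide 5 and both serum arrays on slide 4, which leaves the slide and the treatment confounded at 18 h: they cannot be told apart, and no batch value within the time exists. Differences under 2-fold are therefore given as descriptions, and genes at least 2-fold apart in every pair are counted separately. Each slide also held other mice, which give a check within the slide but at other times: slide 5 held 4 arrays of 24 h (3 oleic acid, 1 serum), and slide 4 held 6 arrays of 3 and 4 h (4 oleic acid, 2 serum). On the 18 h arrays, 65.2% and 64.8% of spots were well above background with oleic acid, against 59.8% and 62.7% with serum, within the range of 54.3% to 76.3% over the series. The 17 markers of neurons, glia and endothelium chosen to check the tissue were above background on all 4 arrays.

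Serum replicate 1 stood apart from the other 3 arrays. The oleic acid arrays correlated with each other at 0.995 over 25172 genes, and the serum arrays at 0.990. The oleic acid arrays correlated with serum replicate 2 at 0.992 and 0.993, more closely than the serum arrays did with each other, and with serum replicate 1 at 0.986 and 0.988. At least 2-fold apart were 299 genes between the oleic acid arrays, 993 between the serum arrays, 766 and 600 between oleic acid arrays and serum replicate 2, and 1637 and 1279 between oleic acid arrays and serum replicate 1. The main gene groups below are therefore also given against each serum mouse.

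Of the 25172 genes fitted, 0 passed limma's adjusted p under 0.05 (0%), and the smallest adjusted p was 0.0890, that of Ceacam12. At an unadjusted p under 0.05 there were 775 genes higher with oleic acid (3.08%) and 1058 lower (4.2%). Genes whose arrays did not overlap numbered 5763 higher (22.9%) and 7434 lower (29.5%). The direction went with brightness. Among the 8391 genes with the highest signal 79.5% were lower with oleic acid, at a median difference of -0.15, while among the 8391 with the lowest signal 33.5% were lower, at a median of 0.17. The median over all genes was -0.04, and -0.18 when arrays were scaled to their median instead of their 75th percentile. A list of bright genes is read beside this shift. In a fit with slide as a fixed block, limma's adjusted test was passed by 8 genes (0.0318%), 6 of them with a symbol: Satb1, Fanci, Gins1, Tmprss4, Nxnl2 and Mir17hg. That fit draws on mice of other times, and Satb1, a chromatin organiser, differed by -0.01 between the arrays of 18 h themselves but by -5.06 in it, and Fanci, of the Fanconi DNA repair pathway, by 0.02 and -5.14.

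Genes of the unfolded protein response were lower with oleic acid, at a median of -0.27, in 24 of 25 measured members. Of the 25, 18 belong to the genes with the highest signal. In 17 members (68%) both oleic acid arrays lay below both serum arrays, against 29.5% of all genes. At an unadjusted p under 0.05 stood 11 members (44%), all lower, against 4.2% of all genes lower. Of the list, 0 passed limma's adjusted test. The same shares of all genes apply to the lists below. The median was -0.32 against serum replicate 1 and -0.25 against serum replicate 2, so it did not rest on the serum mouse that stood apart. In whole tissue, fewer cells of a type and less RNA per cell cannot be told apart, here and below.

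The promoters of 5 of these genes are shown because they carry the sequence through which the unfolded protein response is known to act. The endoplasmic reticulum stress element (ERSE), bound by ATF6 and XBP1 together with NF-Y, was searched as CCAAT, 9 free bases and CCACG, and its variant ERSE-II as ATTGG, 1 free base and CCACG, on both strands, from 250 bases before to 50 after the gene start (RefSeq, GRCm38.p6). ERSE was found in 8 of the 23 members with a promoter sequence (34.8%), against 37 of 27025 genes (0.137%), and ERSE-II in 2 members (8.7%), against 12 genes (0.0444%). The 5 are those with an unadjusted p under 0.05 and a match within the 150 bases before the gene start. The other 4 members with ERSE had an unadjusted p above 0.05. Each line gives those bases on the gene's own strand, with the match in capitals, and where the match is on the opposite strand it reads CGTGG first. A match in the letters is a description and says nothing of binding in these brains.
Creld2 (chr15:88819496-88819645, plus strand, ERSE on the opposite strand): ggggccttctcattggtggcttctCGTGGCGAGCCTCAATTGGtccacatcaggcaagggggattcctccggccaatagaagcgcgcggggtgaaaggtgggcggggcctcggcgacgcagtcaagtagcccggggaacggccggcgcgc
Herpud1 (chr8:94386279-94386428, plus strand, ERSE-II): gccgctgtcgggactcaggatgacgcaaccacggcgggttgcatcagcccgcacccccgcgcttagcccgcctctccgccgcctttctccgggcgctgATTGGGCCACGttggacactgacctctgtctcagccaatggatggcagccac
Hspa5 (chr2:34771940-34772089, plus strand, ERSE): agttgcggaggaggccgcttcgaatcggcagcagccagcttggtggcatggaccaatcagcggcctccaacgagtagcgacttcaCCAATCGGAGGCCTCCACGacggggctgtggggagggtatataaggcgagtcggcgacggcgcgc
Pdia6 (chr12:17266439-17266588, plus strand, ERSE): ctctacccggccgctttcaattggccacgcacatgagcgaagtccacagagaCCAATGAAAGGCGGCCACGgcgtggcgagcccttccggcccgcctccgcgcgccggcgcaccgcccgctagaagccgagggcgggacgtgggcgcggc
Syvn1 (chr19:6046426-6046575, plus strand, ERSE): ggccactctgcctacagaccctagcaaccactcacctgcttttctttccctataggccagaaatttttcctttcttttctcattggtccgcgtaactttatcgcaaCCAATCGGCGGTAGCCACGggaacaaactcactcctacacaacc

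Creld2, an endoplasmic reticulum stress-induced protein that acts on disulphide bonds, had log2 signals of 2.83 and 2.88 with oleic acid, against 3.55 and 3.50 with serum. The replicates of each treatment were close and the groups were apart, with a difference of -0.67 ± 0.16 (limma adjusted p = 0.601). Sdf2l1, a cochaperone of BiP, had 0.63 and 0.12 with oleic acid, against 1.42 and 1.11 with serum, and the largest difference of the list (-0.89 ± 0.28). Hspa5, which encodes BiP itself, the chief chaperone of the endoplasmic reticulum, had 4.85 and 4.60 with oleic acid, against 5.21 and 5.17 with serum (-0.47 ± 0.21). The groups did not overlap in any of the 3 genes.

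The next genes to be described have other roles in the response. Xbp1, the transcription factor that drives much of the response, had 3.99 and 4.02 with oleic acid, against 4.51 and 4.58 with serum (-0.54 ± 0.19). Herpud1 and Syvn1 act in the degradation of endoplasmic reticulum proteins, Syvn1 as the ubiquitin ligase HRD1. Herpud1 had 2.05 and 2.26 with oleic acid, against 2.61 and 2.70 with serum (-0.50 ± 0.16). Syvn1 had 3.90 and 4.13 with oleic acid, against 4.63 and 4.52 with serum (-0.56 ± 0.20). Pdia6, a disulphide isomerase, and Manf, a secreted survival factor induced by stress of this organelle, differed by -0.61 ± 0.22 and -0.56 ± 0.19, again with no overlap of the groups. The limma adjusted p was 0.673 for each of these 5 genes. Pdia6 and Syvn1 are outside the naming rule and were picked once values were seen, because their promoters are shown.

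**Figure D1:**
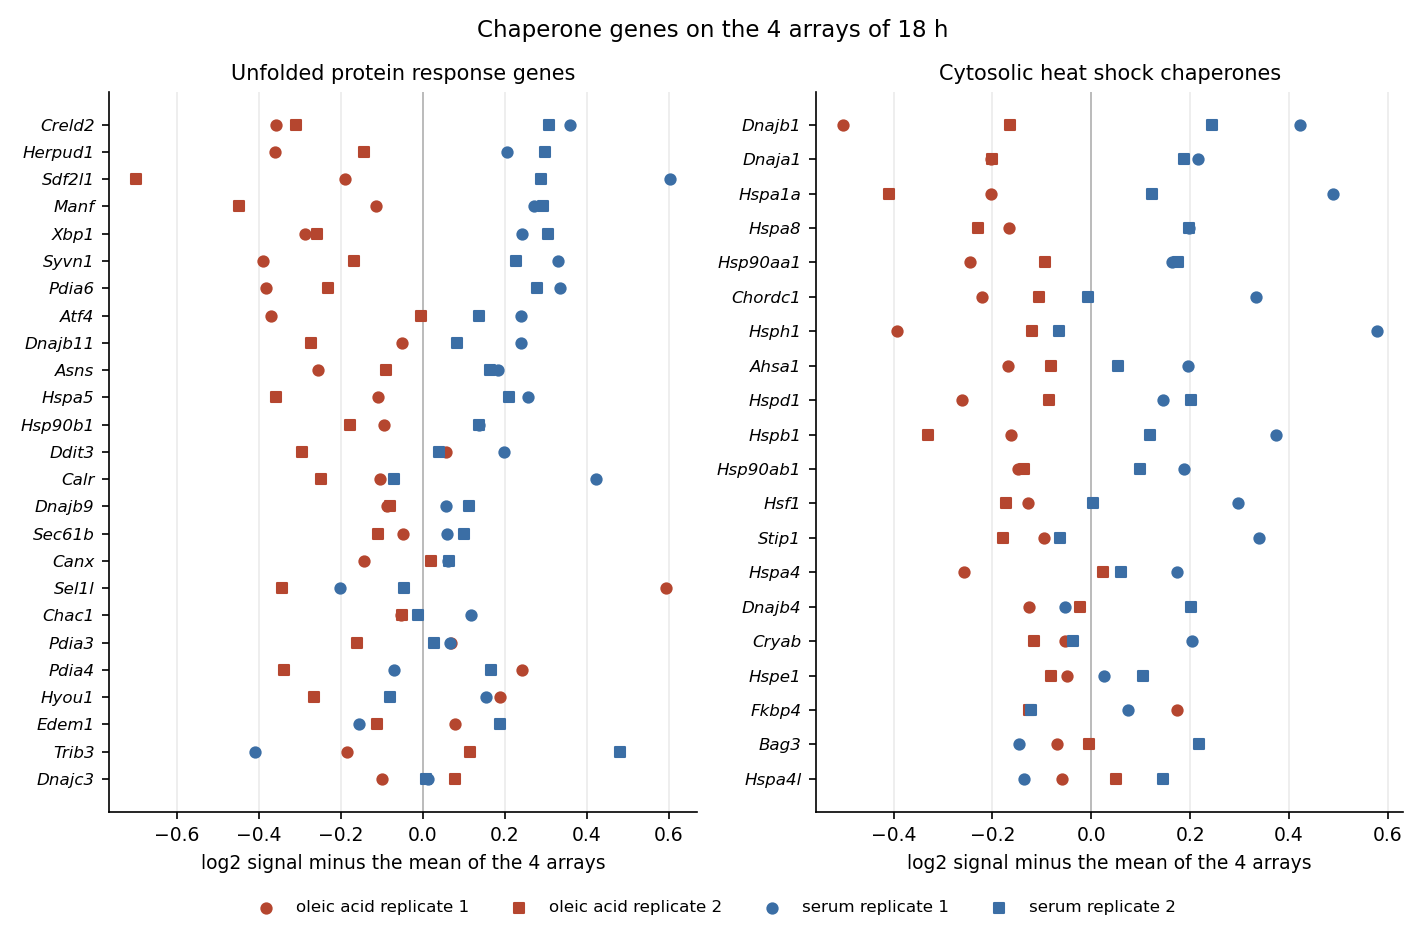
Log2 signal of each measured gene of the unfolded protein response (left, 25 genes) and of the cytosolic heat shock chaperones (right, 20 genes) on each of the 4 arrays, minus the mean of the 4 arrays, with genes ordered by unadjusted p. Oleic acid points lie left of both serum points in 17 of 25 and in 16 of 20 genes.

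Cytosolic heat shock chaperones, a list of 21 that also holds the mitochondrial chaperone genes Hspd1 and Hspe1, were lower in 19 of 20 measured members. The median was -0.29, and 18 of the 20 belong to the genes with the highest signal. The groups did not overlap in 16 members (80%), all lower, against 29.5% of all genes. At an unadjusted p under 0.05 stood 7 members (35%), against 4.2% of all genes lower. Dnajb1, the HSP40 that HSF1 induces, had 3.98 and 4.32 with oleic acid, against 4.91 and 4.73 with serum (-0.67 ± 0.19, limma adjusted p = 0.669). Hspa1a, an inducible HSP70 whose near-identical copy could share its signal, had -0.26 and -0.47 with oleic acid, against 0.43 and 0.07 with serum (-0.61 ± 0.21). Hspa8, the constitutive HSP70 and one of the brightest genes of the array, had 7.61 and 7.55 with oleic acid, against 7.98 and 7.98 with serum (-0.40 ± 0.15). In these 3 genes every serum array was above every oleic acid array. Dnaja1, another HSP40, and Hsp90aa1, the inducible HSP90, differed by -0.40 ± 0.12 and -0.34 ± 0.13. The median of the list was -0.33 against serum replicate 1 and -0.22 against serum replicate 2. The heat shock element, searched on both strands as GAA, TTC and GAA with 2 free bases between each, was in 4 of 15 promoters of the list (26.7%), against 179 of 27025 (0.662%). Of these 4 members, 2 had an unadjusted p under 0.05. The other 2 were Hspd1 and Hspe1, whose promoters overlap on opposite strands and share the matched stretch, so that it is counted in both.

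In both chaperone lists the serum arrays, more than the oleic acid arrays, differed from the other mice on their own slide. Against the other 6 arrays of slide 4, the serum mice were above the mean in 23 of 25 unfolded protein response genes (median 0.21) and in 19 of 20 heat shock chaperones (median 0.29). Against the other 4 arrays of slide 5, the oleic acid mice were below the mean in 15 of 25 unfolded protein response genes (median -0.04) and above it in 12 of 20 heat shock chaperones (median 0.05). Creld2 shows this pattern: the other arrays of slide 5 ranged from 2.70 to 3.20, around the oleic acid values, and those of slide 4 from 2.26 to 2.83, below both serum values. Hspa5 ranged from 4.36 to 4.78 on the rest of slide 5 and from 4.23 to 4.79 on the rest of slide 4, below both serum values of 18 h. Herpud1 and Syvn1 did not show it, since the other arrays of slide 4 ranged from 2.56 to 2.71 and from 4.18 to 4.75, around both serum values. Hsp90aa1 likewise ranged from 5.93 to 6.24 there. The slide mates were brains of other times, so time differs within each slide. They were mostly oleic acid mice on both slides. The serum mice were thus set mostly against the other treatment, and the oleic acid mice mostly against their own. Between the slide mates themselves, slide 5 minus slide 4, the medians were 0.09 for the unfolded protein response and -0.03 for the heat shock chaperones.

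**Figure D2:**
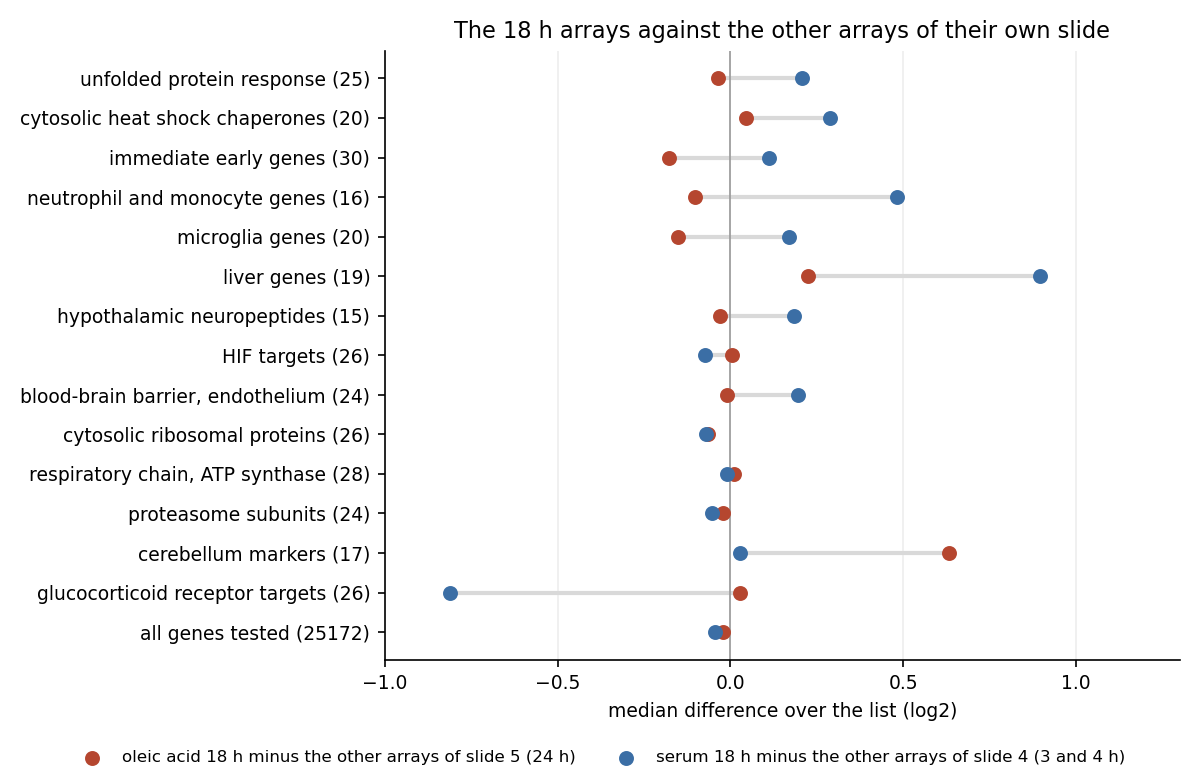
Median log2 difference over each gene list (number of genes in brackets) of the oleic acid arrays of 18 h from the other 4 arrays of slide 5, and of the serum arrays of 18 h from the other 6 arrays of slide 4. In both chaperone lists the serum point is to the right (0.21 and 0.29) and the oleic acid point is near 0 (-0.04 and 0.05).

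Both chaperone medians stayed below 0 under each scaling of the arrays that was tried, and were closer to 0 where the brightness trend was removed. After cyclic loess, which was chosen after seeing the data, the unfolded protein response was at -0.18 with 22 of 25 members lower, and the heat shock chaperones at -0.15 with 16 of 20 lower, against -0.02 for all genes. With slide as a fixed block, the 18 h difference is adjusted by a slide difference estimated only from mice of other times. Slides 4 and 5 share no group, and are linked there through other slides by groups with a single array on a slide. The medians were then 0.03 and -0.03, and Herpud1, Manf, Xbp1, Syvn1, Pdia6, Hspa5, Dnaja1 and Hsp90aa1 changed sign. Creld2 and Hspa8 kept their sign but lay near 0, at -0.00948 and -0.0467, while Sdf2l1 and Hspa1a were at -1.03 and -0.71. At 24 h, 11 of 25 and 11 of 20 members were lower with oleic acid.

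Large and consistent differences were counted as genes whose every oleic acid array lay at least 2-fold from every serum array. There were 100 such genes higher with oleic acid (0.397%) and 25 lower (0.0993%). Most were dim: 86 of the 100 and 23 of the 25 belong to the 8391 genes with the lowest signal, and 24 and 7 were above background on all 4 arrays. With normexp background correction, which compresses dim signals, 8 and 2 genes reached this mark. Of the higher genes, 7 lay above all slide mates with oleic acid and also below all slide mates with serum, and of the lower genes 3 lay outside both slides' ranges in the matching way.

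Ceacam12, of the carcinoembryonic antigen family, had the widest gap. It had -8.00 and -8.05 with oleic acid, where it was not well above background, against -4.11 and -4.10 with serum, where it was. Its bound on the processed signals was at least 3.25-fold lower in the oleic acid mice. The fitted difference was -3.92 ± 0.63 (limma adjusted p = 0.0890, and between 0.00318 and 0.9996 over the alternatives). The gene passed the background filter only through the serum mice in which it is high, so this p supports nothing on its own, and a filter of 24 arrays above background removed the gene. Both serum values were far above the slide mates, where the gene lay between -7.77 and -6.71 on the rest of slide 5 and between -7.52 and -7.02 on the rest of slide 4. Its difference was -0.81 with normexp correction, so the fold given does not hold under that correction. The 1 probe that gave this value matches the plus strand at chr7:18654740-18654799 (mm9, per the array annotation) and is shown because the result rests on it alone.
Ceacam12 probe: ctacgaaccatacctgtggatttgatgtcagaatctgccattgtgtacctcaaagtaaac

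The 3 osteocalcin genes of mouse, which lie together on chromosome 3 and encode a hormone of bone matrix, had the widest gaps among lower genes that have a symbol and were above background on all 4 arrays. Bglap2 had -1.84 and -2.34 with oleic acid, against -0.10 and 0.00 with serum (-2.04 ± 0.62, limma adjusted p = 0.673). Bglap3 had -1.38 and -1.60 with oleic acid, against -0.07 and 0.17 with serum (-1.55 ± 0.49). Bglap had -4.24 and -4.53 with oleic acid, against -2.89 and -2.93 with serum (-1.48 ± 0.58). In all 3 genes both serum mice were high and both oleic acid mice low, and serum replicates 1 and 2 gave like values. Both serum values of Bglap2 and Bglap3 were above the other arrays of slide 4 (-1.90 to -0.48 and -1.26 to -0.20), while those of Bglap were within them (-4.74 to -2.74). With normexp correction the differences were -1.71, -1.25 and -0.76.

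The osteocalcin probes are printed because the genes are near-identical copies, so that signal could be shared between them. Both probes of Bglap3 were lower, and 1 of them overlaps the probe of Bglap2 over 25 bases, of which 23 are the same. Both probes match the minus strand of mm9, at chr3:88172673-88172732 and chr3:88181822-88181881, and capitals mark the bases that differ within the overlap. The values of the 3 genes may therefore not be independent.
Bglap3 probe: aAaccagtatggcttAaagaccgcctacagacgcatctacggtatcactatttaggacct
Bglap2 probe: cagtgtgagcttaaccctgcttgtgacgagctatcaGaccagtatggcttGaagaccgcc

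Other genes lower by at least 2-fold in every pair and above background on all 4 arrays were Fbxw13, an F-box gene, Cyp4a14 and Ces1c. Cyp4a14, a fatty acid hydroxylase and known target of the receptor PPAR-alpha in liver, had -5.21 and -5.07 with oleic acid, against -3.85 and -4.00 with serum (-1.22 ± 0.84). Ces1c, a plasma carboxylesterase made by liver, had -5.40 and -5.61 with oleic acid, against -4.35 and -3.13 with serum (-1.76 ± 0.91). Fbxw13 had -5.01 and -5.02 with oleic acid, against -3.54 and -3.78 with serum (-1.35 ± 0.65). All 3 are dim, and the limma adjusted p was 0.673 for Fbxw13 and Ces1c and 0.693 for Cyp4a14. Above background with serum alone were the dendritic cell lectin gene Cd209a, at least 3.24-fold lower with oleic acid, the liver deacetylase gene Aadac, at least 2.67-fold, the fatty acid binding protein gene Fabp12, at least 2.53-fold, and the prostaglandin D2 receptor gene Ptgdr, at least 2.28-fold.

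Genes higher by at least 2-fold in every pair and above background on all 4 arrays were Dcaf12l2, Mpp7, Cc2d2a and Dgkg among those with a gene symbol. Dgkg, a diacylglycerol kinase strongly expressed in cerebellum and other brain regions, had 1.97 and 1.77 with oleic acid, against 0.76 and 0.64 with serum (1.17 ± 0.36). It was the clearest of them on the slides, since the oleic acid arrays were above the rest of slide 5 (0.61 to 1.29) and the serum arrays below the rest of slide 4 (0.93 to 1.63). Mpp7, a scaffold protein of cell polarity, had -1.12 and -1.23 with oleic acid, against -3.15 and -2.36 with serum (1.58 ± 0.50). Cc2d2a, a protein of the ciliary transition zone, had 0.45 and 0.55 with oleic acid, against -0.64 and -0.59 with serum (1.11 ± 0.42), and both of its probes were higher. The limma adjusted p was 0.673 for each.

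Dcaf12l2 had the largest difference of the 4 genes and the widest spread. It had 5.07 and 4.19 with oleic acid, against 2.63 and 1.94 with serum (2.35 ± 1.11, limma adjusted p = 0.673). On the other arrays of slide 5 it ran from 0.77 to 4.79 and on those of slide 4 from 2.70 to 5.48, and its 4 values at 18 h lie between the lowest and the highest of these mice. Above background with oleic acid alone was E2f4, a cell cycle repressor of the E2F family, at -3.84 and -4.39, against -6.53 and -5.64 with serum. It was at least 2.53-fold higher with oleic acid on the processed signals (fitted difference 1.97 ± 0.44, limma adjusted p = 0.601), and its difference was 0.38 with normexp correction. The T cell receptor chain gene Cd247 was at least 1.93-fold higher, the noncoding RNA gene Lncbate1 at least 1.57-fold, the collagen gene Col17a1 at least 1.49-fold, and the gene Cby2 at least 1.42-fold.

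**Figure D3:**
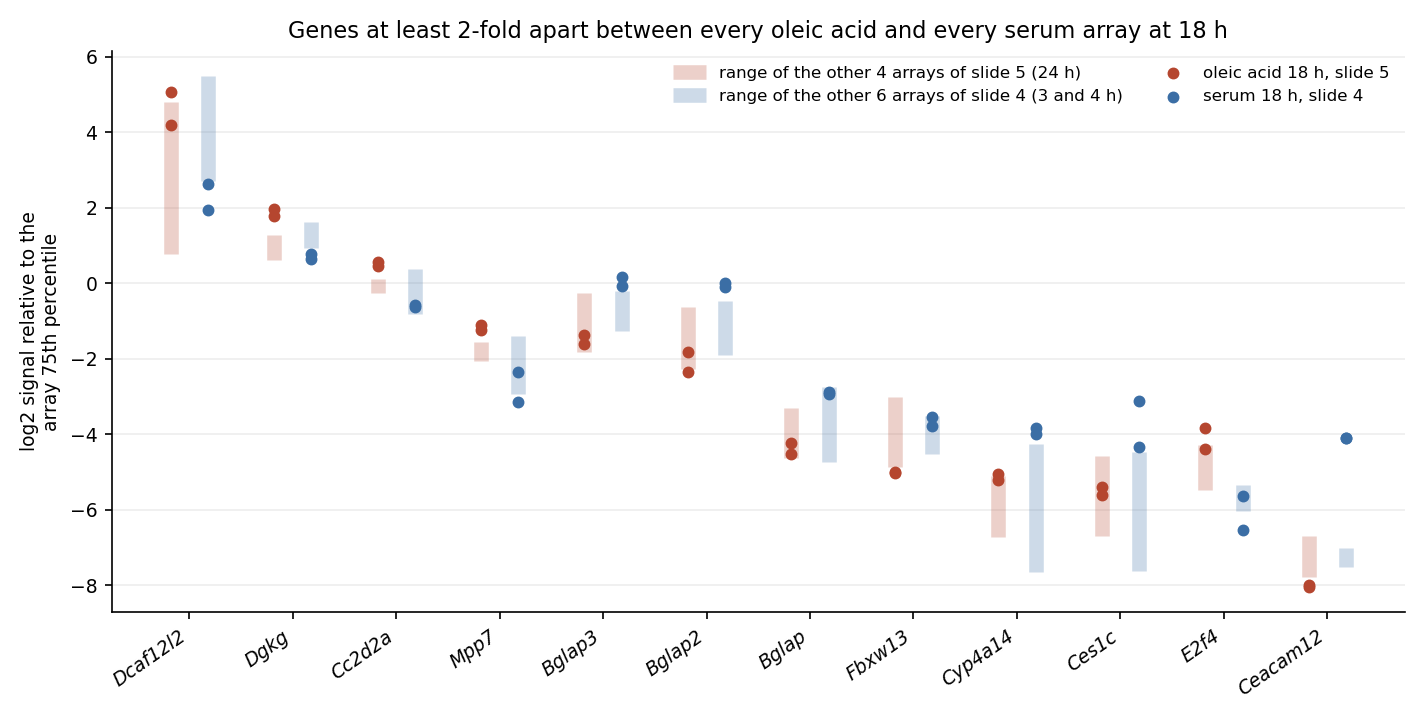
Log2 signal of 12 genes at least 2-fold apart in every pair of arrays, with the oleic acid arrays of 18 h (red points) beside the range of the other 4 arrays of slide 5, and the serum arrays of 18 h (blue points) beside the range of the other 6 arrays of slide 4. The serum points of Ceacam12, Bglap2, Bglap3, Cyp4a14 and Ces1c stand above their slide's range, and the oleic acid points of Dgkg, Cc2d2a and Mpp7 stand above theirs.

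The difference at 18 h was also set against the mean difference at the other 5 times, which uses no shared mice. No gene passed limma's adjusted p under 0.05 (0%, smallest adjusted p 0.566), while 1809 of the 25172 genes fitted were under 0.05 without adjustment. The 18 h difference enters this contrast with its slide and treatment still confounded. By unadjusted p, the leading genes with a symbol were Ceacam12 (-3.66 ± 0.68), Ghdc, Hmgn1, Rest and Smyd4. Ghdc, of little known function, had -0.69 and -1.08 with oleic acid, against -1.96 and -2.23 with serum. Its difference exceeded that of the other times by 1.37 ± 0.27. Rest, the repressor of neuronal genes in other cells, had -1.44 and -1.30 with oleic acid, against -2.14 and -2.14 with serum, and exceeded the other times by 1.04 ± 0.24. Ghdc and Rest were outside the slides' ranges on both sides, with oleic acid above -1.23 and -1.51, the highest slide mates of slide 5, and serum below -1.74 and -1.79, the lowest of slide 4.

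Lower than at the other times were Hmgn1 and Smyd4. Hmgn1, a nucleosome-binding protein, had 3.41 and 3.45 with oleic acid, against 4.08 and 3.95 with serum, and the departure from the other times was -0.61 ± 0.14. Smyd4, of a family of methyltransferases, had -0.68 and -1.03 with oleic acid, against -0.22 and 0.06 with serum, and departed by -0.90 ± 0.21. Both oleic acid values of each gene were below every other array of slide 5. Sfrp4, a secreted modulator of Wnt signalling chosen for its small unadjusted p after values were seen, had -1.60 and -1.61 with oleic acid, against -2.33 and -2.10 with serum (0.61 ± 0.12, limma adjusted p = 0.495).

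Immediate early genes, switched on in neurons by activity, were lower in 23 of 30 members, at a median of -0.37. Of the 30, 10 (33.3%) were lower at an unadjusted p under 0.05, against 4.2% of all genes. Without overlap 13 (43.3%) were lower, against 29.5%. Serum replicate 1 carried most of this: the median was -0.62 against it and -0.08 against serum replicate 2, and the oleic acid mean was below serum replicate 2 in 15 of 30 members. Npas4, a factor induced by calcium entry, had 1.55 and 1.93 with oleic acid, against 2.91 and 2.42 with serum (-0.93 ± 0.32). Egr1 had 3.25 and 3.61 with oleic acid, against 4.51 and 4.14 with serum (-0.90 ± 0.32). Fosl2, of the AP-1 family, had 0.56 and 0.74 with oleic acid, against 1.65 and 1.24 with serum (-0.79 ± 0.25). In these 3 genes the groups were apart, and serum replicate 1 was the highest array.

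Of the other 2 leading members by unadjusted p, Dusp6, a phosphatase that shuts off ERK, differed by -0.72 ± 0.24, and Ier5 by -0.83 ± 0.30, both without overlap. Fos, the AP-1 subunit, overlapped: it had -0.85 and 0.29 with oleic acid, against 0.91 and 0.24 with serum (-0.86 ± 0.38). The limma adjusted p was 0.673 for each of the 6 genes. With slide as a fixed block the median was -0.07.

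Transcripts of neutrophils and monocytes were lower in 13 of 16 measured members of a list of 20, at a median of -0.66. Of the 16, 7 (43.8%) were lower at an unadjusted p under 0.05, against 4.2% of all genes. Without overlap 7 (43.8%) were lower, against 29.5%. Against serum replicate 1 the median was -1.10 and against serum replicate 2 it was -0.23. It depended as much on the oleic acid mice, at -0.25 for replicate 1 and -1.20 for replicate 2 against the serum mean. Ltf, the granule protein lactoferrin, had -2.93 and -4.34 with oleic acid, against -1.42 and -2.55 with serum (-1.65 ± 0.55). Camp, the antimicrobial peptide cathelicidin, had -0.83 and -1.41 with oleic acid, against 0.01 and -0.27 with serum (-0.99 ± 0.35). S100a9, a subunit of calprotectin, had 1.49 and 0.20 with oleic acid, against 2.56 and 1.84 with serum (-1.35 ± 0.50). Replicate 1 was the higher array within each treatment in all 3 genes, and oleic acid replicate 2 was the lowest of the 4 arrays. Mpo, the myeloperoxidase of primary granules, had -3.29 and -3.97 with oleic acid, against -2.32 and -3.22 with serum, with oleic acid replicate 1 just below serum replicate 2. S100a8, the other subunit of calprotectin, had -0.57 and -1.85 with oleic acid, against 0.57 and -0.57 with serum, so that its groups met.

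Red blood cell transcripts, which mark blood left in the brain, lay the same way as the granule genes. They were lower in 11 of 14 members, at a median of -0.34, and at -0.65 against serum replicate 1 and -0.12 against serum replicate 2. By oleic acid mouse the median was -0.16 for replicate 1 and -0.66 for replicate 2. Alas2, the first enzyme of haem synthesis in erythroid cells, had -0.27 and -0.78 with oleic acid, against 1.07 and -0.14 with serum (-0.99 ± 0.43). Hba-a2, an alpha globin with a near-identical copy, had 7.35 and 6.90 with oleic acid, against 8.38 and 7.55 with serum (-0.84 ± 0.39). The part of blood content in the granule gene result was not tested. Inflammatory mediators were lower in 15 of 19 measured members at a median of -0.12, and at 0.03 against serum replicate 2. The chemokine gene Cxcl10 had -4.59 and -4.54 with oleic acid, against -3.85 and -3.40 with serum (-0.94 ± 0.51, limma adjusted p = 0.673). Ccl2, another chemokine gene of the panel, lay the other way. It had -4.11 and -4.18 with oleic acid, against -4.34 and -4.45 with serum (0.25 ± 0.58). Il1b, also of the panel, differed by -0.07 ± 0.39.

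Microglia genes, of the resident macrophages of the brain, were lower in 17 of 20 members, at a median of -0.34. Without overlap 12 (60%) were lower, against 29.5% of all genes. At an unadjusted p under 0.05, 3 (15%) were lower, against 4.2%. The median was -0.45 against serum replicate 1 and -0.17 against serum replicate 2. Tyrobp, the adaptor of TREM2, had 2.25 and 2.29 with oleic acid, against 3.00 and 2.63 with serum (-0.54 ± 0.19). C1qb, a chain of complement C1q, differed by -0.54 ± 0.25, and Csf1r, the receptor on which microglia depend, by -0.39 ± 0.18, where 2 of its 3 probes were lower and 1 higher. In Tyrobp and C1qb the oleic acid arrays were below every other array of slide 5, whereas serum replicate 2 was within the range of slide 4.

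Cerebellum markers were higher with oleic acid in 17 of 17 members, at a median of 0.92, but the size rested on 1 serum mouse. It was 1.85 against serum replicate 1 and 0.18 against serum replicate 2, and 0 members had an unadjusted p under 0.05. Gabra6, the GABA receptor subunit of granule cells, had 1.98 and 2.32 with oleic acid, against -2.85 and 2.01 with serum (2.57 ± 3.23). Pcp2, of Purkinje cells, had 5.71 and 5.93 with oleic acid, against 1.87 and 5.57 with serum (2.10 ± 2.44). Cbln3, secreted by granule cells, had -0.66 and -0.72 with oleic acid, against -7.01 and -1.11 with serum, and was not above background in serum replicate 1. Serum replicate 2 was close to the oleic acid arrays in all 3 genes, of which Pcp2 was chosen after values were seen.

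In 10 of the 17 markers both serum arrays were below both oleic acid arrays (58.8%, against 22.9% of all genes), among them Pcp2, Cbln3 and Barhl1. Barhl1, a homeobox gene of granule cell precursors, had 0.05 and -0.20 with oleic acid, against -0.79 and -0.57 with serum (0.60 ± 0.31). Serum replicate 1, low in cerebellar RNA, is thus the same array that was high in immediate early, granule, erythroid and microglia genes. The part of brain composition in those results was not tested, and the values against serum replicate 2 are those given beside each.

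**Figure D4:**
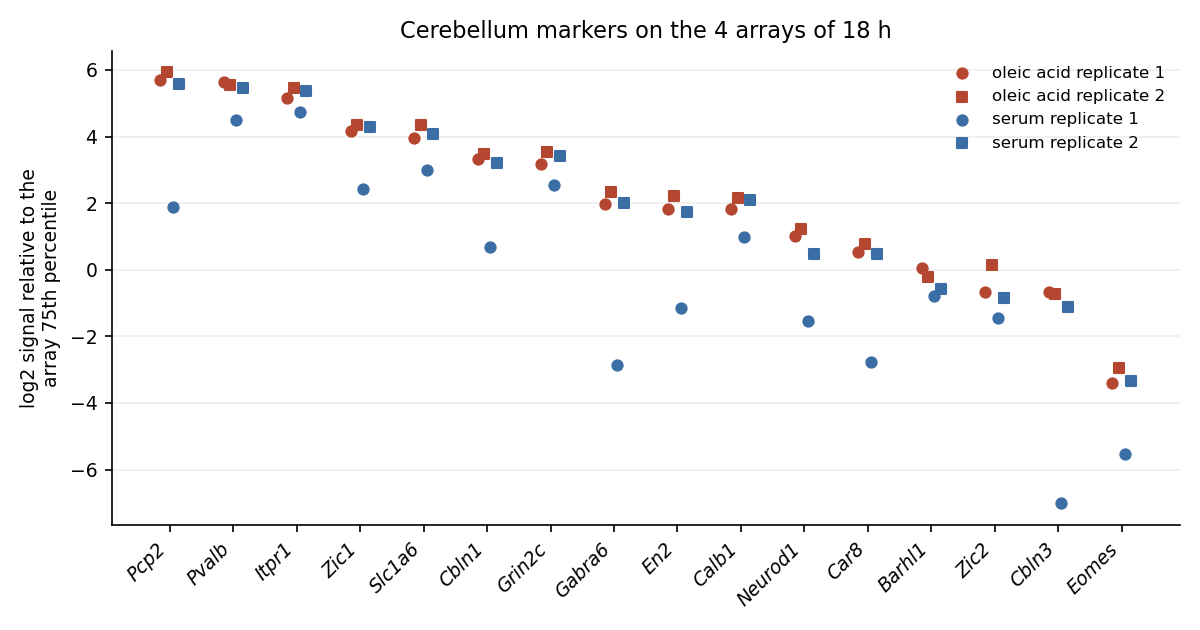
Log2 signal of 16 of the 17 cerebellum markers on each of the 4 arrays of 18 h. Serum replicate 1 is the lowest array for each marker, down to -7.01 for Cbln3, and serum replicate 2 lies close to the oleic acid arrays.

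Transcripts typical of liver were lower in 17 of 19 measured members of a list of 23, at a median of -0.67. Without overlap 10 (52.6%) were lower, against 29.5% of all genes, and 0 members had an unadjusted p under 0.05. The median was -0.85 against serum replicate 1 and -0.40 against serum replicate 2, and by oleic acid mouse -0.35 for replicate 1 and -0.87 for replicate 2. Mup5, a urinary protein whose close copies could share signal, had -4.93 and -5.11 with oleic acid, against -3.66 and -4.19 with serum (-1.09 ± 0.65). Hpx, the haem carrier hemopexin, had -2.08 and -2.77 with oleic acid, against -0.60 and -2.08 with serum (-1.08 ± 0.80). On their slides the serum mice were above the rest of slide 4 by a median of 0.90 and the oleic acid mice above the rest of slide 5 by 0.22. The source of these transcripts in the brain samples was not tested.

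Hypothalamic neuropeptides were lower in 14 of 15 members, at a median of -0.42. Without overlap 12 (80%) were lower, against 29.5% of all genes. The median was -0.59 against serum replicate 1 and -0.22 against serum replicate 2. Crh, which starts the hormonal stress response, had -0.17 and 0.34 with oleic acid, against 0.60 and 0.46 with serum (-0.44 ± 0.17). Npy, a peptide that drives feeding, had 3.22 and 2.86 with oleic acid, against 3.76 and 3.27 with serum (-0.48 ± 0.23). Both oleic acid arrays were below both serum arrays in each, by a narrow margin in Npy. Markers of hippocampus and cortex were lower in 15 of 16 members, at a median of -0.24, and at -0.43 against serum replicate 1 and -0.20 against serum replicate 2.

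Targets of the hypoxia-inducible factor (HIF) were lower in 22 of 26 measured members, at a median of -0.18. Without overlap 18 (69.2%) were lower, against 29.5% of all genes. At an unadjusted p under 0.05, 4 (15.4%) were lower, against 4.2%. The median was -0.25 against serum replicate 1 and -0.16 against serum replicate 2. After cyclic loess it was -0.06, and 8 members were lower without overlap. The slide mates of other times, slide 5 minus slide 4, gave a median of -0.25 for this list. P4ha2, a collagen prolyl hydroxylase, had 0.37 and 0.62 with oleic acid, against 1.08 and 1.05 with serum (-0.57 ± 0.13, limma adjusted p = 0.601). P4ha1, of the same enzyme family, had -0.11 and -0.12 with oleic acid, against 0.68 and 0.36 with serum (-0.64 ± 0.22). Pfkfb3, an activator of glycolysis, had 1.25 and 1.43 with oleic acid, against 1.89 and 1.86 with serum (-0.54 ± 0.17). The groups were apart in all 3 genes. For P4ha1 and Pfkfb3 both serum arrays were above the rest of slide 4.

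Clock genes were lower in 15 of 18 members, at a median of -0.24 (-0.23 against serum replicate 1 and -0.28 against serum replicate 2), with 3 at an unadjusted p under 0.05. Per2, of the negative arm of the clock, had -1.51 and -1.54 with oleic acid, against -0.48 and -0.84 with serum (-0.87 ± 0.28). Per1 had 3.37 and 3.81 with oleic acid, against 4.43 and 4.05 with serum (-0.64 ± 0.26). Tef, a clock output factor, differed by -0.40 ± 0.19. Dbp, another output factor, differed by -0.28 ± 0.25. Per2 was also apart from its slide mates on both sides, with oleic acid below -1.40 and serum above -0.90. Per1 was not, since both serum values were below every other array of slide 4, mice of other hours after injection.

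Genes of the blood-brain barrier and endothelium were lower in 19 of 24 members, at a median of -0.21, with 4 lower and 1 higher at an unadjusted p under 0.05. The median was -0.33 against serum replicate 1 and -0.16 against serum replicate 2. Mfsd2a, the carrier of docosahexaenoic acid into the brain, had 1.99 and 2.05 with oleic acid, against 2.78 and 2.41 with serum (-0.57 ± 0.19). Abcb1a, the efflux pump P-glycoprotein, had 0.78 and 0.93 with oleic acid, against 1.23 and 1.16 with serum (-0.34 ± 0.15). Cldn5, the main claudin of brain capillaries, had 3.61 and 3.63 with oleic acid, against 4.36 and 3.97 with serum (-0.54 ± 0.35). Each of the 3 was lower in both oleic acid mice than in either serum mouse, and the limma adjusted p was 0.673 to 0.685. Slc7a5, the higher one, lay the other way and had the largest difference of the list in size. It had 0.73 and 0.50 with oleic acid, against -1.29 and 0.19 with serum (1.17 ± 0.50, limma adjusted p = 0.673).

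Genes of lipid metabolism, which include those that handle fatty acids, had medians near 0. PPAR targets and genes of fatty acid oxidation were lower in 17 of 24 members at a median of -0.07, with 1 higher and 1 lower at an unadjusted p under 0.05. The higher one was Ppargc1a, the coactivator PGC-1-alpha of mitochondrial genes, at 1.88 and 1.77 with oleic acid, against 0.93 and 0.85 with serum (0.93 ± 0.32). Both of its probes were higher, both oleic acid arrays were above the rest of slide 5 (1.18 to 1.45) and both serum arrays below the rest of slide 4 (1.27 to 1.81). Genes of fatty acid and cholesterol synthesis were lower in 15 of 26 members at a median of -0.03, but after cyclic loess 19 were higher, at a median of 0.07.

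Housekeeping groups were lower in nearly all members, by amounts close to the difference between mice of other times on the same slides. Cytosolic ribosomal proteins were lower in 26 of 26 members (median -0.24), respiratory chain subunits in 26 of 28 (-0.19) and proteasome subunits in 23 of 24 (-0.20). Both oleic acid arrays lay below both serum arrays in 20, 19 and 20 members (76.9%, 67.9% and 83.3%). In the unfolded protein response and heat shock lists these shares were 68% and 80%, so this trait is not particular to them. The mice of other times on the same slides, slide 5 minus slide 4, gave -0.22, -0.22 and -0.25 for these lists. Time and the mix of treatments also differ between those mice, and the part of the slide was not tested. After cyclic loess the medians were -0.03, 0.00 and -0.03. These lists hold 26, 28 and 23 members among the genes with the highest signal.

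**Figure D5:**
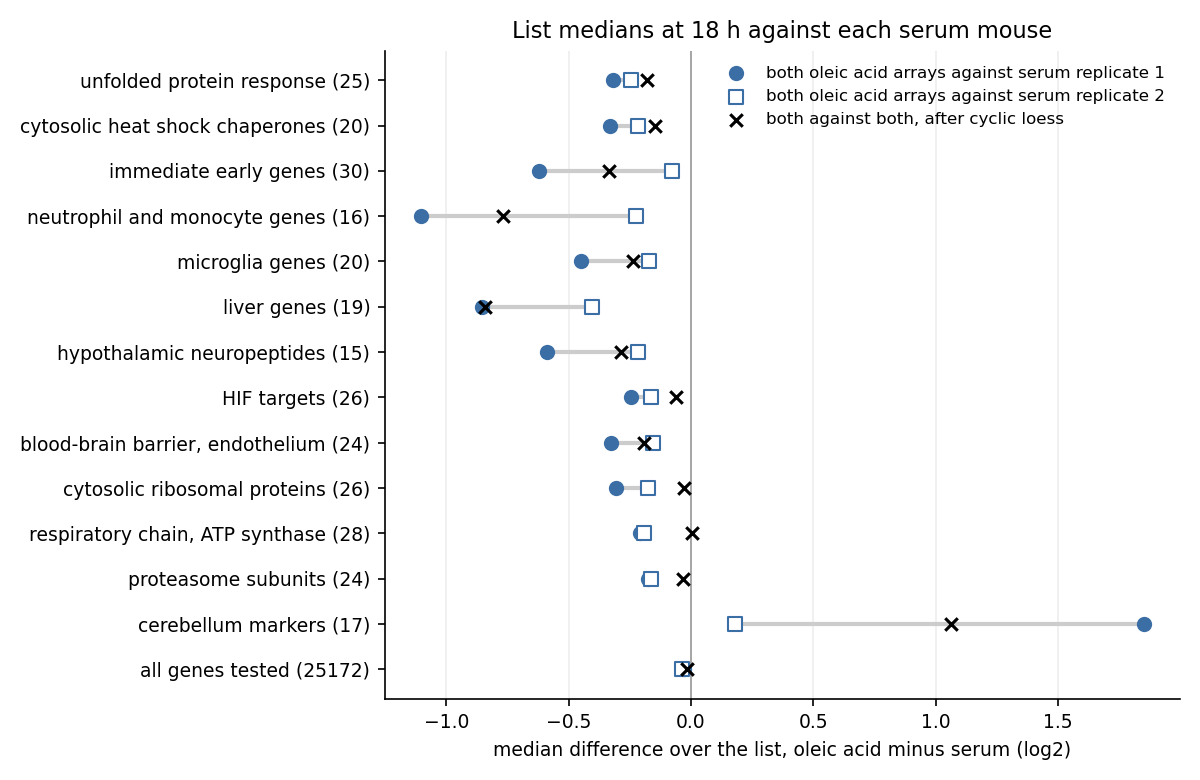
Median log2 difference, oleic acid minus serum, over each list (number of genes in brackets), for both oleic acid arrays against serum replicate 1 and against serum replicate 2, and for all 4 arrays after cyclic loess. The chaperone lists lie below 0 in all 3 settings, the immediate early, neutrophil and cerebellum lists differ between the serum mice, and the ribosomal, respiratory and proteasome lists lie near 0 after cyclic loess.

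A few genes of other lists stood higher with oleic acid against lists near 0. Hmgb1, a chromatin protein released by injured cells, had 2.96 and 2.64 with oleic acid, against 1.74 and 1.94 with serum (0.96 ± 0.43), and all 7 of its probes were higher. H4c8, a histone H4 gene, differed by 0.67 ± 0.21, and the histone and HMG list had a median of 0.06 over 17 genes. Among channels, the potassium channel genes Kcna2 and Kcnc1 differed by 0.65 ± 0.31 and 0.52 ± 0.22. Of the 23 members of the channel list 13 were higher (median 0.03), and 2 of 3 probes of Kcnc1 were higher. Dcn, the proteoglycan decorin of meningeal and perivascular fibroblasts, had 2.60 and 2.63 with oleic acid, against 2.00 and 1.88 with serum (0.67 ± 0.22). Otx2, a homeobox gene of choroid plexus, had 0.68 and 0.82 with oleic acid, against 0.21 and 0.23 with serum (0.53 ± 0.24), and 13 of 18 choroid plexus genes were higher at a median of 0.03. In these 3 genes with array values the groups did not overlap, and the limma adjusted p was 0.673 for each gene of this paragraph.

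Lower with oleic acid were Gadd45a and Plk2, targets of p53. Gadd45a had -1.20 and -0.98 with oleic acid, against -0.38 and -0.53 with serum (-0.64 ± 0.21). Plk2 had 0.97 and 0.96 with oleic acid, against 1.76 and 1.46 with serum (-0.65 ± 0.24). Both were without overlap, and 10 of 15 genes of the p53 list were lower, at a median of -0.17 (-0.22 against serum replicate 1, -0.05 against serum replicate 2, and -0.06 after cyclic loess). Astrocyte genes (13 of 20 lower, median -0.09) and oligodendrocyte genes (12 of 19 lower, -0.02) had 0 members at an unadjusted p under 0.05, and both directions turned with cyclic loess, to 13 and 15 members higher (0.07 and 0.10). Interferon-stimulated genes were lower in 23 of 27 measured members at a median of -0.15, with 1 at that threshold. Targets of the glucocorticoid receptor were lower in 22 of 26 at -0.20, with 2 at that threshold, and at -0.24 and -0.10 against serum replicates 1 and 2.

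The remaining lists had medians between -0.24 and 0.01 and at most 3 members lower or 1 higher at an unadjusted p under 0.05. Striatum markers were lower in 12 of 14 members (median -0.24, and -0.34 and -0.12 against serum replicates 1 and 2), NRF2 antioxidant genes in 14 of 18 (-0.18, and 10 lower at -0.03 after cyclic loess), cell cycle genes in 12 of 16 measured members of 19 (-0.19), and metallothioneins and genes of iron and zinc handling in 11 of 15 (-0.15, and 8 lower at -0.03 after cyclic loess). Cold-inducible RNA-binding proteins, a list that also holds the chaperone gene Hspa8 given above, were lower in 5 of 9 members (-0.23). Cirbp, of this list, was higher without overlap (0.29 ± 0.14). Glutamate and GABA receptor subunits were lower in 17 of 24 (-0.06, but 15 higher at 0.04 after cyclic loess), and genes of pericytes, fibroblasts and collagens in 11 of 20 (-0.08). The background filter kept 7 of 11 lung genes, 7 of 17 lymphocyte genes and 7 of 10 pituitary hormones, of which 4, 5 and 4 were lower, but 5 of the pituitary hormones were higher after cyclic loess. Sodium-potassium ATPase and ion transport genes (median 0.01) and nuclear long noncoding RNAs (-0.01) had 0 members at that threshold.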

How the data were processed

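Each brain was measured on 1 single-colour Agilent array. The deposited files hold Cy3 intensity per spot, extracted by the authors with Agilent's software (Feature Extraction 10.5.1.1, per the submitters' processing notes), background-subtracted and not normalized between arrays, with deposited flags scored 0 or 1. The authors' deposited value table, an alternative here, holds log2 values with medians of 6.13 that follow each array's mean intensity (correlation 0.998 to 1.000). Its centring is otherwise not stated.

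Processed intensity was log2-transformed, minus the array's 75th percentile. Probes well above background throughout 1 or more groups (35652 of 55681) and measured on all arrays (35498) were kept, and each gene (25172) was represented by its brightest probe on average. Some list members are not reported here. RefSeq tables updated symbols, and 26005 probes keep the array's name. Limma 3.58.1 in R 4.3.3 fitted 12 group means with 19 residual degrees of freedom, and Benjamini-Hochberg adjusted p under 0.05 counted as passing. A fold of at least a value divides the bright group's mean by the lowest signal well above background on the dim arrays, or by the gene's own signal there where that is higher. The number of arrays and the signal over background limit precision.

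The members and the 39 gene lists were chosen with earlier results of these data known. Named were genes at least 2-fold apart in every pair, the 5 largest bounded folds each way, up to 5 members per list and 5 genes against other times by unadjusted p, genes passing with the slide block, and a panel of well-known genes. Alternatives were background correction, normalization, filters, probe averaging, slide and replicate blocks, weights, other fits, each mouse left out and, added after seeing the data, cyclic loess (span 0.7, 3 iterations).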

Additional observations from a re-analysis of the deposited data

How the results depend on the processing

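The count of genes past the adjusted test (0) was 1 with scaling to the median and at an adjusted p under 0.1, 2 with the deposited value table, 3 when only the 4 arrays of 18 h were fitted, 8 (0.0318%) with slide as a fixed block and 119 with limma's arrayWeights, whose weights did not converge, and 0 to 2 with a mouse left out (2 without serum replicate 2). Genes departing from the other times (0) numbered 1 with the deposited table, 5 with the slide block, 50 with arrayWeights and 0 to 2 with a mouse left out. At an unadjusted p under 0.05, genes higher (775) numbered 473 with normexp, 442 with median scaling, 335 with a random slide block, 2090 with arrayWeights, 2369 on 18 h arrays alone and 280 (without oleic acid replicate 1) to 981 with a mouse left out. Those lower (1058) numbered 512 with the fixed and 374 with the random slide block, 2920 with arrayWeights and 301 (without serum replicate 1) to 1142 with a mouse left out. Genes at least 2-fold higher (100) numbered 8 with normexp, 64 with median scaling, 12 with the deposited table, 65 with cyclic loess, 204 without the filter, 35 with a filter of 24 arrays, 535 at 1.5-fold and 151 to 839 (without serum replicate 2) with a mouse left out. Those lower (25) numbered 2, 3 with the deposited table, 43 with cyclic loess, 126 without the filter, 5 with the filter of 24 arrays, 88 at 1.5-fold and 61 to 122 (without serum replicate 2) with a mouse left out. Leaving out a mouse leaves fewer pairs to satisfy, and 1 serum or oleic acid mouse is then assumed to vary like the other groups.

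The unfolded protein response median (-0.27) was -0.23 with normexp, -0.19 with quantile normalization, -0.41 with median scaling, -0.17 with the deposited table, -0.18 with cyclic loess, 0.03 with the slide block and -0.32 to -0.22 with a mouse left out. The heat shock median (-0.29) was -0.17 with quantile normalization, -0.43 with median scaling, -0.18 with the deposited table, -0.15 with cyclic loess, -0.0307 with the slide block and -0.33 to -0.22 with a mouse left out. With a mouse left out, the immediate early median ranged from -0.62 to -0.0772, the neutrophil median from -1.20 to -0.23 and the cerebellum median from 0.18 to 1.85, each nearest 0 without serum replicate 1, and the immediate early median was -0.0711 with the slide block. Respiratory subunits were at 0.00464 with the deposited table and 0.00268 with cyclic loess, and barrier genes at 0.00309 with the slide block.

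The slide block also reversed 22 of 82 named genes: Ces1c 0.0704, Col17a1 -0.78, Herpud1 0.31, Manf 0.10, Xbp1 0.16, Syvn1 0.0308, Pdia6 0.20, Hspa5 0.70, Dnaja1 0.0379, Hsp90aa1 0.40, Fosl2 0.28, Npas4 0.25, S100a8 0.53, Gabra6 -0.30, Pcp2 -0.67, Barhl1 -0.14, Mup5 0.54, Pfkfb3 0.45, H4c8 -0.29, Kcnc1 -0.22, Gadd45a 0.25 and Plk2 0.17. The cause was not tested, and no other alternative reversed a named gene. Some genes kept their sign with the slide block but lay near 0, among them Creld2 -0.00948, Hspa8 -0.0467, P4ha2 -0.000708 and Hmgn1 -0.0822. With a replicate block 0 genes passed limma's adjusted test and 1537 had an unadjusted p under 0.05. Same-numbered mice at 18 h correlated at -0.04 in their deviations. With 2 mice per group this is a single value, so it cannot decide whether the numbers pair the mice.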
